A study of Mus musculus with 32 samples.

Results

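The genes described are 33 mouse genes for the enzymes of glycolysis and for the membrane carriers that bring glucose into a cell and let lactate out. They were taken by gene symbol from the annotation of the arrays and sorted into 12 steps of the pathway, with the isoform genes of each step side by side. Of the 33 genes, 30 were measured on at least 1 of 2 array types, among 23339 genes in all. There were 28 of them on the arrays of cells taken after 48 h and 29 on the arrays of cells taken after 72 h, and 27 on both. Gpi1, Pfkfb1 and Eno1 were not analysed here. Pgm1 and Aldoa were read at 72 h alone and Pgam1 at 48 h alone. Pfkm, Pfkfb4, Pklr and Slc16a7 at 48 h, and Hk3, Pgam2 and Slc16a7 at 72 h, averaged below the median of all probe-set values (5.58 and 3.93 on the log2 scale), so they were dim. None of the dim genes was removed.

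Glycolysis splits glucose into pyruvate in the cytosol, and lactate dehydrogenase then turns pyruvate into lactate, which leaves the cell through monocarboxylate carriers. Resting T cells use little glucose. When their receptor binds antigen they take up far more of it, make lactate even in oxygen and raise many genes of the pathway under the transcription factors MYC and HIF-1. Most steps have several isoform genes, and cells change which of them they express as well as how much.

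The cells were CD4+ helper T cells from lymph nodes of Balb/c mice with the DO11.10 transgenic T cell receptor, which recognizes an ovalbumin (OVA) peptide, and every group carried that receptor. They were cultured on macrophages drawn from the peritoneum after thioglycollate, which presented the peptide, and were sorted as living CD4+ single cells. At 48 h, the groups with antigen were cells in medium holding arginine, leucine or lysine at 1% of its normal level, cells in full medium on macrophages that had first been treated with the cytokines IL-4 and IL-10, at 10 ng/mL of either, and washed, and cells in full medium on untreated macrophages, with 3 arrays each. Cells without antigen were measured in low arginine (2 arrays), low leucine and low lysine (3 arrays each), and a 48 h group without antigen in full medium was not analysed here. At 72 h, 3 arrays each held cells with antigen on pretreated macrophages, cells with antigen on untreated macrophages, and cells without antigen, all in full medium. Macrophages were present in every culture.

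Levels are log2 expression values as the authors deposited them, and changes are log2 fold changes ± SE from limma, the first named group over the second, called at a Benjamini-Hochberg adjusted p below 0.05 over all genes. It is not recorded if replicates came from different cultures or mice, so p-values measure the spread between these arrays, which may be technical. All 11 CD4 T cell markers measured at 48 h and all 12 at 72 h lay at or above the median of all probe sets in every array. Their mean level was lower without antigen. At 72 h it was 9.06 to 9.36, against 10.06 to 10.64 with antigen on untreated macrophages and 10.20 to 10.60 on pretreated ones. At 48 h it was 9.68 to 10.18 in the low media without antigen, against 10.20 to 10.69 over the groups with antigen. The part of this difference in the antigen comparisons was not tested. Some arrays stood apart. Replicate 1 of low lysine with antigen had a mean B cell marker level of 6.83, against 6.03 and 5.58 in replicates 2 and 3, and a mean level of G2/M division genes of 6.22, against 7.41 and 8.54. Among pretreated cultures at 48 h the division genes stood at 8.30 in replicate 3 and at 6.62 and 6.89 in the other two, and at 72 h at 7.44, 9.45 and 8.44. The 72 h arrays without antigen held markers of mesothelial and stromal cells at 9.85 to 10.08, against 4.37 to 4.72 with antigen on untreated macrophages (4.69 to 6.41 on pretreated ones). A whole-sample measurement cannot tell fewer cells of a type from less RNA per cell.

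In low amino acid medium with antigen, glycolysis genes were called lower than in full medium with antigen, and none was called higher. The number called lower was 13 of 28 in low arginine, 2 of 28 in low leucine and 12 of 28 in low lysine. Over all 22180 genes, 4.67%, 2.72% and 8.73% were called in the same comparisons, 3.17%, 1.56% and 6.24% lower and 1.51%, 1.15% and 2.49% higher. The median change of the 28 genes was -0.57, -0.32 and -0.40, beside 0.01, 0.00 and 0.02 over all genes, and 25, 23 and 26 of the 28 lay below 0. All 3 comparisons use the same full-medium arrays, so their values are set side by side and not compared by overlap. Those full-medium arrays carry another run of submitter numbers than the low amino acid arrays, and numbering and medium cannot be told apart. Division genes were called lower in low lysine (11 of 11) and not in low arginine or low leucine (0 of 11 each), and their part in the falls was not tested.

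**Figure D1:**
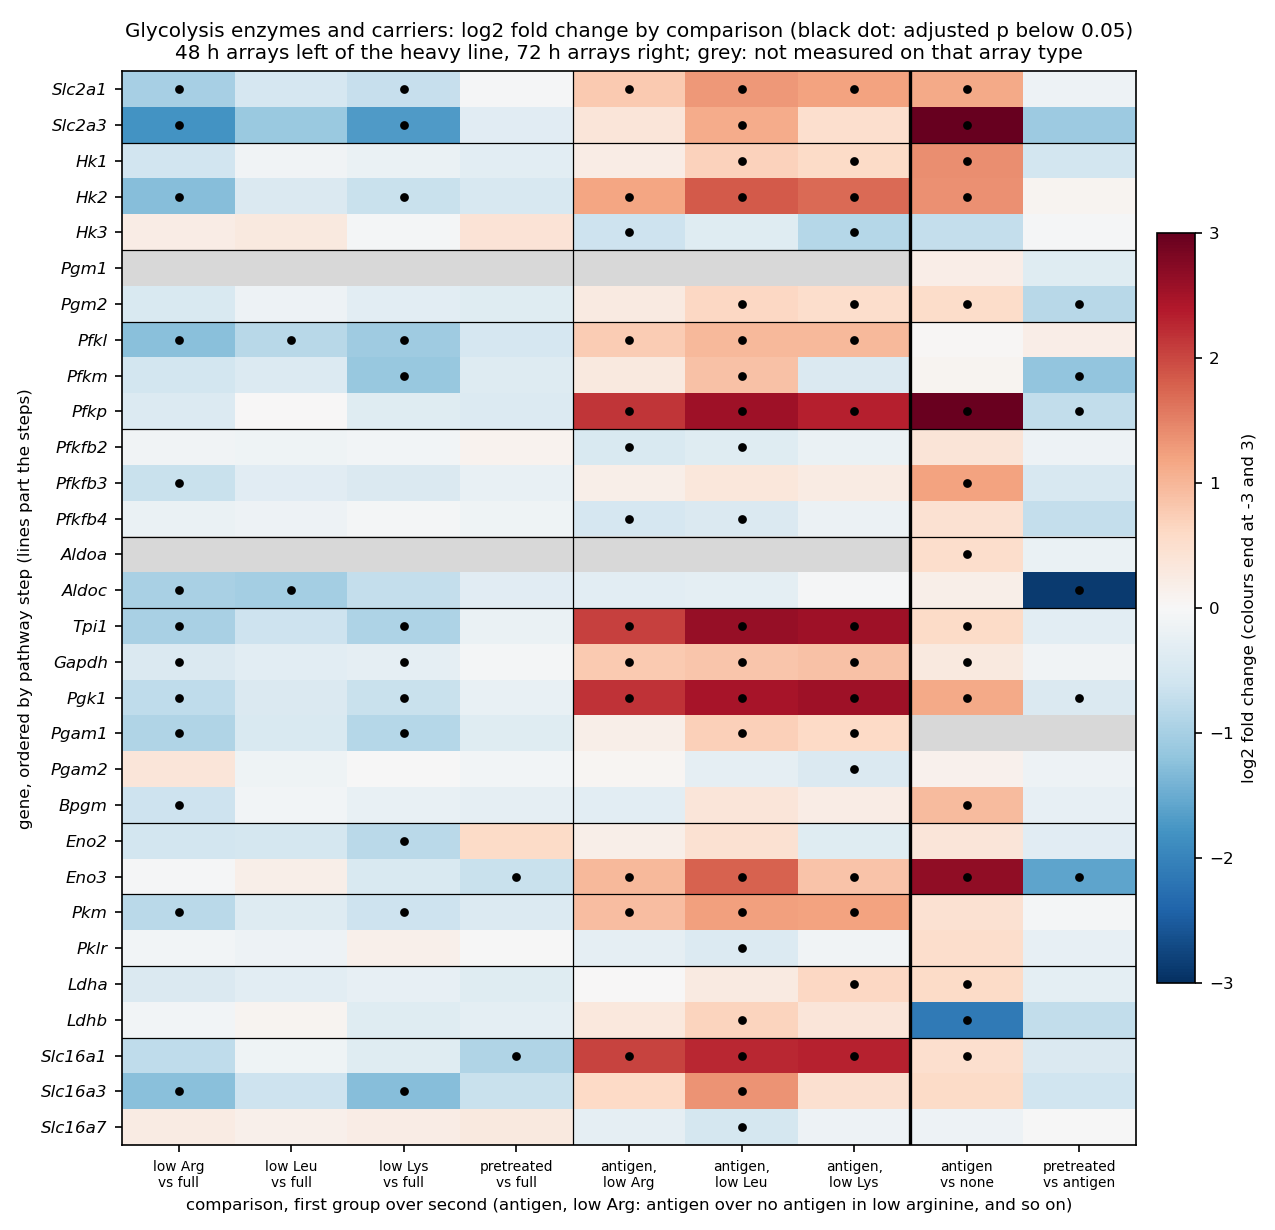
Log2 fold change of each measured gene (rows, ordered by pathway step) in 9 comparisons (columns), red where the first group was higher and blue where it was lower; black dots mark adjusted p below 0.05 and grey cells were not measured. The columns for low arginine and low lysine hold 13 and 12 called falls, the column for low leucine 2, and the antigen columns are mostly red.

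Among the glucose carriers, Slc2a3, which encodes the high-affinity carrier GLUT3, had the largest called falls in low arginine and low lysine. It stood at 7.12, 6.82 and 7.03 in low arginine, 7.72, 6.97 and 8.35 in low leucine and 6.79, 6.76 and 7.69 in low lysine, against 8.54, 8.93 and 8.89 in full medium. Every low amino acid array lay below every full-medium array, and the low leucine arrays were the most scattered. The change was -1.79 ± 0.32 in low arginine (3.47-fold lower, adjusted p = 0.00132) and -1.71 ± 0.32 in low lysine (adjusted p = 0.00208). In low leucine it was -1.10 ± 0.32 and missed the threshold (adjusted p = 0.0734). Slc2a1, which encodes the widespread carrier GLUT1, stood at 9.34, 9.23 and 9.24 in low arginine, 9.83, 9.42 and 9.98 in low leucine and 9.32, 9.41 and 10.00 in low lysine, against 10.27, 10.18 and 10.33 in full medium. It fell by 0.99 on the log2 scale in low arginine (SE 0.17, adjusted p = 0.000953) and by 0.68 in low lysine (SE 0.17, adjusted p = 0.0144), and was not called in low leucine (-0.51 ± 0.17, adjusted p = 0.135). A second, dim probe set for Slc2a1 differed by -0.22 in low arginine, and with the mean of both probe sets the call in low lysine was lost.

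Hexokinases trap glucose in the cell by adding a phosphate. Hk2, the inducible isoform, stood at 7.25, 7.44 and 7.38 in low arginine, 8.40, 8.08 and 8.17 in low leucine and 7.69, 7.91 and 8.35 in low lysine, against 8.61, 8.59 and 8.73 in full medium. The low arginine arrays were the lowest of all cells given antigen, and no low amino acid array reached the full-medium range. The fall was 1.29 on the log2 scale in low arginine (SE 0.20, adjusted p = 0.000256) and 0.66 in low lysine, where it rested on the setting (SE 0.20, adjusted p = 0.0383, not called under 8 of 13 alternatives). In low leucine Hk2 was not called (-0.42 ± 0.20, adjusted p = 0.371). Hk1, the constitutive isoform, stood at 6.85, 6.93 and 6.95 in low arginine, against 7.42, 7.64 and 7.41 in full medium, without overlap, and missed the threshold (-0.58 ± 0.17, adjusted p = 0.0547). Hk3, a hexokinase of myeloid cells, was not called in any low medium against full medium (0.22, 0.30 and -0.06 in low arginine, leucine and lysine). Pgm2, listed with the phosphoglucomutases, was not called either (-0.45, -0.15 and -0.32).

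Phosphofructokinase commits sugar to glycolysis, and its 3 genes differed in their calls. Pfkl, the liver-type subunit, was called lower in all 3 low media and stood at 7.63, 7.57 and 7.72 in low arginine, 8.26, 7.75 and 8.17 in low leucine and 7.83, 7.55 and 8.11 in low lysine, against 8.996, 8.88 and 8.79 in full medium. The lowest full-medium array was above every low amino acid array. The changes were -1.25 ± 0.18 in low arginine (adjusted p = 0.00019), -0.82 ± 0.18 in low leucine (adjusted p = 0.013) and -1.06 ± 0.18 in low lysine (adjusted p = 0.00114). Pfkp, the platelet-type subunit, was not called in any of them (-0.41, 0.01 and -0.37), and its arrays overlapped those of full medium in low leucine and low lysine. Pfkm, the muscle-type subunit and dim on these arrays, was called in low lysine alone, at 4.98, 4.16 and 4.94 against 5.57, 5.82 and 6.08 in full medium (-1.13 ± 0.23, adjusted p = 0.00317). Whether its change differed between the low media was not called when tested (low arginine over low lysine with antigen, no glycolysis gene called). Of the bifunctional enzymes that make and break the sugar phosphate activating phosphofructokinase, Pfkfb3 was called lower in low arginine (-0.66 ± 0.17, adjusted p = 0.0287), while Pfkfb2 and Pfkfb4 lay between -0.20 and -0.06 in the 3 low media.

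Aldolase splits the sugar into trioses, and Aldoc was the aldolase gene read at 48 h. It stood at 5.55, 5.40 and 5.76 in low arginine, 5.63, 5.43 and 5.51 in low leucine and 5.86, 5.69 and 5.98 in low lysine, against 6.09, 6.79 and 6.78 in full medium. Replicate 1 of full medium was closest to the low media. Aldoc fell in low leucine (-1.03 ± 0.22, adjusted p = 0.0101) and in low arginine (-0.98 ± 0.22, adjusted p = 0.0104), and missed the threshold in low lysine (-0.71 ± 0.22, adjusted p = 0.0519). Tpi1, which interconverts the trioses, was at 10.16, 10.15 and 10.33 in low arginine and 9.92, 10.17 and 10.70 in low lysine, against 11.27, 11.16 and 11.16 in full medium (-0.98 ± 0.21, adjusted p = 0.00622, and -0.93 ± 0.21, adjusted p = 0.00722). Pgk1, the first ATP-making enzyme of the pathway, was at 10.89, 10.95 and 11.03 in low arginine and 10.72, 11.12 and 11.27 in low lysine, against 11.63, 11.79 and 11.73 in full medium. Its changes were -0.76 ± 0.13 (adjusted p = 0.000949) and -0.68 ± 0.13 (adjusted p = 0.00242). Both enzymes had no overlap with full medium in either.

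Pgam1, the phosphoglycerate mutase of most tissues, changed by -0.89 ± 0.22 in low arginine and -0.86 ± 0.22 in low lysine (adjusted p = 0.0171 and 0.0149). Gapdh, which makes NADH in the triose step, fell by 0.44 on the log2 scale in low arginine (SE 0.09, adjusted p = 0.0032), and its fall by 0.28 in low lysine (adjusted p = 0.0495) was lost under 9 of 13 alternatives. Bpgm, which makes bisphosphoglycerate, was called in low arginine alone (-0.63 ± 0.15, adjusted p = 0.0155), and Eno2, the neuronal-type enolase, in low lysine alone (-0.82 ± 0.23, adjusted p = 0.026). Pkm, the pyruvate kinase of proliferating cells, stood at 10.89, 10.89 and 11.11 in low arginine and 10.82, 11.07 and 11.54 in low lysine, against 11.78, 11.72 and 11.81 in full medium. Neither low medium overlapped full medium, and the changes were -0.81 ± 0.14 (adjusted p = 0.00108) and -0.63 ± 0.14 (adjusted p = 0.00735). Pklr, the liver and red cell pyruvate kinase, Eno3, the muscle-type enolase, and Pgam2, the muscle-type mutase, were not called in any low medium against full medium.

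The lactate end of the pathway was uneven. Ldha, which encodes the subunit that favours lactate formation, was not called (-0.44 ± 0.15, -0.32 ± 0.15 and -0.24 ± 0.15 in low arginine, leucine and lysine, adjusted p = 0.11, 0.391 and 0.34), although its arrays lay below those of full medium in each. Ldhb, the subunit of oxidative tissues, was not called either (-0.09, 0.08 and -0.36). Both genes read low at 48 h, with means of 7.04 for Ldha and 7.58 for Ldhb in full medium with antigen. Gapdh averaged 12.71 and Pkm 11.77 there. Whether the probe sets of Ldha and Ldhb understate change was not tested. Slc16a3, which encodes MCT4, a carrier for lactate export, stood at 6.65, 6.33 and 6.86 in low arginine, 7.40, 6.68 and 7.68 in low leucine and 6.40, 6.39 and 6.98 in low lysine, against 7.52, 8.01 and 8.07 in full medium. The low arginine and low lysine arrays lay below full medium, and the low leucine arrays reached into it. Slc16a3 fell in low arginine (-1.25 ± 0.31, adjusted p = 0.0175) and low lysine (-1.28 ± 0.31, adjusted p = 0.0107), and was not called in low leucine (-0.61 ± 0.31, adjusted p = 0.427). Slc16a1, which encodes the two-way carrier MCT1, was not called in low arginine, leucine or lysine (-0.76 ± 0.25, -0.12 ± 0.25 and -0.35 ± 0.25). Slc16a7, which encodes MCT2 and was dim, was not called in any (0.24, 0.15 and 0.23).

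**Figure D2:**
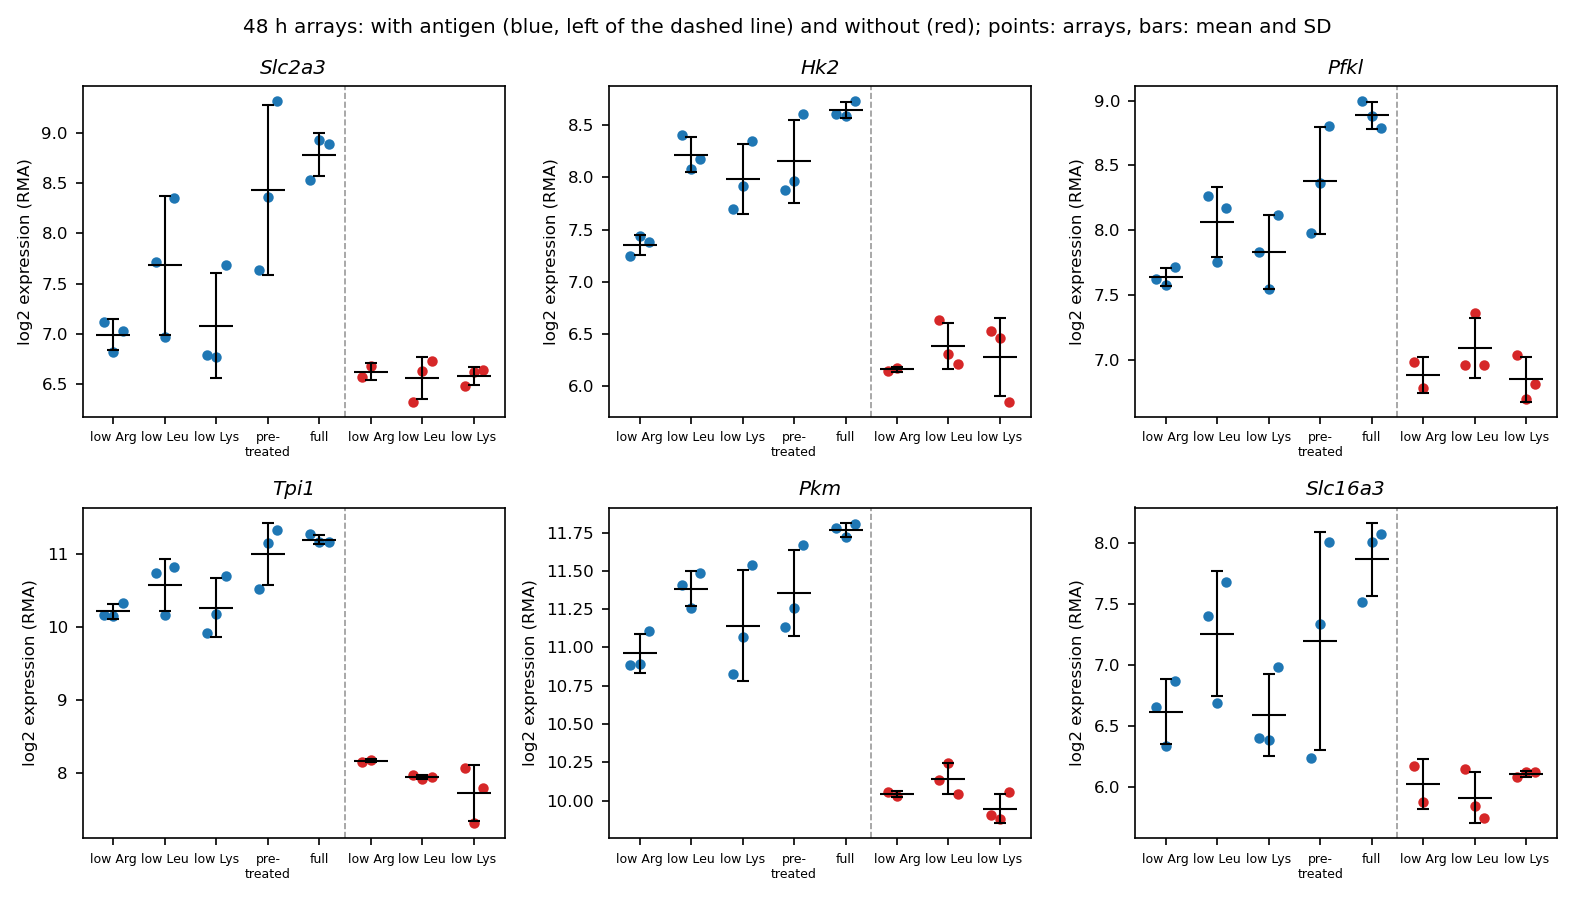
Log2 expression of 6 genes on the 48 h arrays, 1 panel a gene, each point 1 array, with the mean and SD of the group; blue groups had antigen and red groups did not. For Hk2 the low arginine arrays (7.25 to 7.44) lie between those of full medium (8.59 to 8.73) and of the cultures without antigen (5.85 to 6.63), and the pretreated arrays are the most scattered for Slc2a3 (7.63 to 9.32).

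The counts moved with single arrays. Leaving out 1 array at a time gave 8 to 13 calls in low arginine, 0 to 3 in low leucine and 5 to 16 in low lysine, with 5 without replicate 1 of low lysine, 16 without its replicate 3, and 8 in low arginine and 0 in low leucine without replicate 2 of full medium. For counts with 1 array left out, here and below, the share of all genes called is not given. They have no background beside them. Fitting the compared groups alone gave 20, 10 and 7 calls, all of them lower. Over all genes these fits called 11.1%, 7.46% and 4.36%, with 7.61%, 4.45% and 3.16% lower. No called fall of these genes changed sign under any alternative.

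To show the start regions of genes that fell, the RefSeq promoter windows of mouse build GRCm38.p6 are given for the 4 genes with a listed window and the largest called falls in low arginine. Each runs from 250 bases before to 50 bases after the gene's start, 5′ to 3′ on the gene's own strand, and capitals mark ACGTG or its reverse complement. ACGTG is the core that HIF-1 binds, and CACGTG, which contains it on both strands, is the E-box that MYC binds. Hk2 lies at chr6:82774405-82774704 on the minus strand, Pfkl at chr10:78009758-78010057 on the minus strand, Slc16a3 at chr11:120948817-120949116 on the plus strand and Slc2a1 at chr4:119108495-119108794 on the plus strand.
Hk2: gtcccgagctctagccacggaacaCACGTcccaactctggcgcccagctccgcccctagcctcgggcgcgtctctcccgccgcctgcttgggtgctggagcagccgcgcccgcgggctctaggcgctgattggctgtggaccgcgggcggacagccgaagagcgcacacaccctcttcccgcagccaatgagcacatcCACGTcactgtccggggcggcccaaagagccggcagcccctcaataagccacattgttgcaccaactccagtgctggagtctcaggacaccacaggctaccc
Pfkl: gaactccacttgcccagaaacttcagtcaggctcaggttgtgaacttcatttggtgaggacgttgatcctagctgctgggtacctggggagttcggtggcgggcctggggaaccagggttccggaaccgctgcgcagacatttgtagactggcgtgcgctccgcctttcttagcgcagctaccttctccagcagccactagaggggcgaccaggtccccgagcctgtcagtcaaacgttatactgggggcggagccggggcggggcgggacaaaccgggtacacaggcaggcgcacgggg
Slc16a3: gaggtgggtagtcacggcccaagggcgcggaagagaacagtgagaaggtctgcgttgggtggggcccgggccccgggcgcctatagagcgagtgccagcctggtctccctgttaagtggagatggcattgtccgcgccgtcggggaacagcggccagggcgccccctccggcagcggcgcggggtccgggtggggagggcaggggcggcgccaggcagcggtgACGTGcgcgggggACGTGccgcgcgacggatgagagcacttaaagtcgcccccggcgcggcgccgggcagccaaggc
Slc2a1: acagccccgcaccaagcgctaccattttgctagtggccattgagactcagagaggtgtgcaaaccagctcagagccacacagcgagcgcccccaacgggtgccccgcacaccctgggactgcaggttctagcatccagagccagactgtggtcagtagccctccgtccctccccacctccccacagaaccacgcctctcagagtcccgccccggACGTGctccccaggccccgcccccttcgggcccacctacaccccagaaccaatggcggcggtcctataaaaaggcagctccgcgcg
Hk2 and Slc16a3 hold 2 matches to ACGTG each, Slc2a1 holds 1 and Pfkl holds none, and none of the 4 windows holds CACGTG. Windows were found for 31 of the 33 genes, 49 windows in all since some genes have several starts, of which neighbouring ones overlap. ACGTG was in 22 of these 49 (44.9%), against 6447 of the 32851 windows in the table (19.6%), and CACGTG in 5 of 49 (10.2%), against 7.15% of all. At least 1 window held ACGTG for 18 genes and CACGTG for 5. The richest was the first Ldha window, at chr7:46845554-46845853 on the plus strand, with 5 matches to ACGTG and 2 to CACGTG. Each CACGTG counts as 2 of the matches to ACGTG, 1 on either strand. A match is a description of the letters and shows no binding.

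The low media were also set against each other. Low arginine over low leucine with antigen called 1 of 28, Hk2, which was lower in low arginine (-0.86 ± 0.20, adjusted p = 0.0387), where 0.712% of all genes were called and 0.478% were lower. Its values, 7.25, 7.44 and 7.38 in low arginine, against 8.40, 8.08 and 8.17 in low leucine, did not overlap, but the call was lost whenever an array was left out or the arrays were centred or quantile normalized. Of the 28 genes, 23 lay below 0 (median -0.31, beside 0.00 over all genes), and 12 had an unadjusted p below 0.05, 11 lower and 1 higher. Replicate numbers paired the arrays in this comparison. Fitting these 2 groups alone called 6 genes, all lower, beside 3.96% of all genes, and adding the replicate block called 13, 12 lower and 1 higher, beside 6.33% of all genes (4.01% lower and 2.32% higher). Low arginine over low lysine and low leucine over low lysine with antigen called no glycolysis gene, beside 3.22% and 1.88% of all genes (1.59% higher in low leucine over low lysine). At an unadjusted p below 0.05 there were 6 of 28 in each. Low leucine over low lysine gave 4 calls without replicate 3 of low lysine. Without antigen, the low media called none of the 28 against each other in limma, beside 0.00%, 0.00451% and 0.00902% of all genes for arginine over leucine, arginine over lysine and leucine over lysine. At an unadjusted p below 0.05 there were 1, 1 and 3. The share of all genes at an unadjusted p below 0.05 was not counted, so these unadjusted counts have no background beside them.

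Antigen raised glycolysis genes in every low medium at 48 h. In low arginine 10 of 28 rose and 3 fell, in low leucine 17 rose and 4 fell, and in low lysine 14 rose and 2 fell. Over all genes 29.4%, 41.3% and 31.0% were called, 17.2%, 21.8% and 18.4% higher and 12.2%, 19.5% and 12.6% lower. The median change was 0.29, 0.71 and 0.52, beside -0.12, -0.13 and -0.09 over all genes. The same 10 genes rose in all 3 media: Slc2a1, Hk2, Pfkl, Pfkp, Tpi1, Gapdh, Pgk1, Eno3, Pkm and Slc16a1. No measured aldolase, phosphoglycerate mutase or lactate dehydrogenase gene was among them, nor was Slc16a3. Hk1, Pgam1 and Pgm2 rose in low leucine and low lysine. These 3 comparisons have no array in common. Division genes rose too, in 11 of 11, 11 of 11 and 10 of 11 cases, and macrophage markers fell in 10, 15 and 11 of 23. Mesothelial and stromal markers fell in 7, 10 and 3 of 16. Their mean level was 5.55 to 5.59 with antigen in low arginine, against 6.22 in both arrays without, 5.51 to 5.69 in low leucine, against 6.14 to 6.62, and 5.37 to 5.60 in low lysine, against 5.73 to 6.05. The part of division genes and of these markers was not tested.

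The largest rises were in Pgk1, Tpi1, Pfkp and Slc16a1. Pgk1 stood at 10.89, 10.95 and 11.03 with antigen in low arginine, against 8.67 and 8.90 without, and at 11.34, 11.10 and 11.41 in low leucine, against 8.71, 8.92 and 8.77. In low lysine it stood at 10.72, 11.12 and 11.27 with antigen, against 8.51, 8.39 and 8.58 without. The groups were far apart in each medium, and the rises were 2.18 ± 0.15, 2.48 ± 0.13 and 2.54 ± 0.13 (adjusted p = 1.38e-10, 1.74e-12 and 1.1e-12). Tpi1 rose by 2.04 ± 0.23, 2.62 ± 0.21 and 2.53 ± 0.21 in low arginine, leucine and lysine. Pfkp rose by 2.15 ± 0.17, 2.55 ± 0.15 and 2.34 ± 0.15, and with antigen its lowest array in any low medium (9.89) was above the highest without (7.96). Slc16a1 stood at 7.24, 7.58 and 7.77 with antigen in low arginine, against 5.21 and 5.80 without, and rose by 2.03 ± 0.28, 2.26 ± 0.25 and 2.30 ± 0.25 in the 3 media.

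Hk2 rose by 1.19 ± 0.22 in low arginine, 1.83 ± 0.20 in low leucine and 1.70 ± 0.20 in low lysine. Slc2a3 rose in low leucine alone (1.12 ± 0.32, adjusted p = 0.00799), where the call rested on replicate 3 and became 0.78 without it. In low arginine it stood at 7.12, 6.82 and 7.03 with antigen, against 6.56 and 6.68 without, and in low lysine at 6.79, 6.76 and 7.69 with antigen, against 6.48, 6.62 and 6.64 without. The groups did not overlap in either, and the changes of 0.37 and 0.50 were not called. Slc16a3 was called higher with antigen in low leucine alone (1.35 ± 0.31, adjusted p = 0.00119), Ldha in low lysine alone (0.63 ± 0.15, adjusted p = 0.00265), and Ldhb and Pfkm in low leucine alone (0.67 ± 0.16 and 0.88 ± 0.23). None of these differences between media was established: limma's F test of whether the antigen effect differed called none of the 28, beside 0.149% of all genes. At an unadjusted limma p below 0.05 it held Pfkm, Eno3, Bpgm and Ldha, and the share of all genes at that threshold was not counted.

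The falls with antigen were small: Hk3 in low arginine and low lysine (-0.63 ± 0.19 and -0.86 ± 0.17), Pfkfb2 and Pfkfb4 in low arginine and low leucine, Pklr and Slc16a7 in low leucine, and Pgam2 in low lysine. Centring each array on the median of its genes moved the median of all genes by 0.18, 0.18 and 0.14. It left 10 rises and no fall in low arginine, 21 rises and no fall in low leucine, and 15 rises and 1 fall in low lysine, where Hk3 kept its call. Over all genes, the share of calls that were higher was then 83.0%, 75.9% and 79.0%, against 58.5%, 52.7% and 59.4% in the values as deposited. The share of all genes called after centring is not given here, so these counts have no background beside them. Aldoc, Bpgm, Eno2 and Pfkfb3 were called in no low medium.

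**Figure D3:**
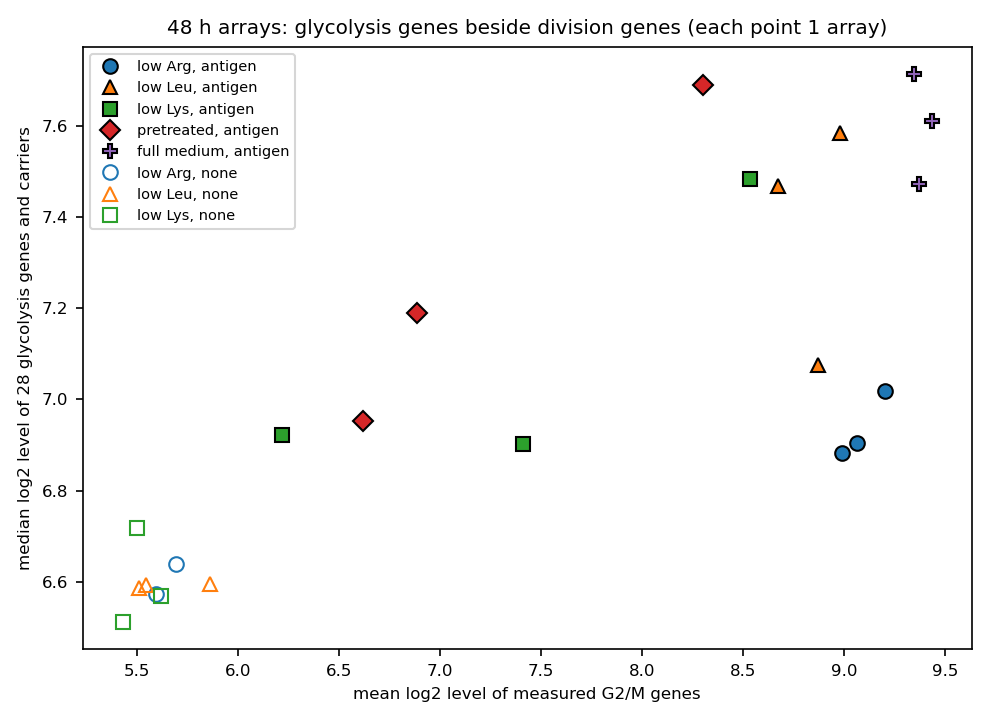
Median log2 level of the 28 glycolysis genes and carriers (vertical) against the mean log2 level of 11 G2/M division genes (horizontal), each point 1 of the 23 arrays at 48 h. With antigen, full medium has division genes at 9.35 to 9.43 and glycolysis medians of 7.47 to 7.71. Low arginine has 8.99 to 9.20 and 6.88 to 7.02, both below full medium. Low leucine has 8.67 to 8.98 and 7.08 to 7.58, and low lysine 6.22 to 8.54 and 6.90 to 7.48. Pretreated cultures have 6.62 to 8.30 and 6.95 to 7.69. The link between both levels was not tested.

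In full medium at 72 h, antigen raised 15 of 29 genes and lowered 1, beside 38.2% of 17097 genes called, 20.7% higher and 17.4% lower. The median change was 0.52, beside 0.02 over all genes. Slc2a3 had the largest rise and stood at 12.21, 11.54 and 11.67 with antigen, against 8.80, 9.05 and 8.53 without (3.01 ± 0.35, adjusted p = 3.99e-05). Its other 3 probe sets, of which 2 were dim, differed by 0.77 to 3.49. Pfkp stood at 11.38, 11.14 and 11.22 with antigen, against 8.15, 8.52 and 8.21 without (2.95 ± 0.16, adjusted p = 2.59e-07). Eno3 stood at 9.79, 9.23 and 9.49 with antigen, against 6.85, 6.88 and 6.83 without (2.65 ± 0.21, adjusted p = 2.88e-06). All 3 genes were several log2 units above the cultures without antigen.

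Both widespread hexokinases rose, Hk1 by 1.40 ± 0.20 and Hk2 by 1.38 ± 0.19, with no overlap of arrays (adjusted p = 0.000201 and 0.000131). Slc2a1 rose by 1.13 ± 0.23, Pfkfb3 by 1.20 ± 0.25, Pgk1 by 1.14 ± 0.11 and Bpgm by 0.94 ± 0.19, with adjusted p between 1.09e-05 and 0.00234. Aldoa, the ubiquitous aldolase, Tpi1, Gapdh, Pgm2, Ldha and Slc16a1 rose by 0.30 to 0.58. The other genes of these steps were not called, among them Pfkl, whose arrays without antigen ran from 5.80 to 8.14, Pkm (0.46 ± 0.25, adjusted p = 0.182) and Slc16a3 (0.58 ± 0.25, adjusted p = 0.0896).

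Ldhb was the one gene lowered by antigen at 72 h, at 9.19, 8.09 and 9.21, against 11.09, 10.78 and 11.00 without (-2.13 ± 0.34, adjusted p = 0.000476). A second probe set gave -2.08. Ldha rose by 0.58 ± 0.12 (adjusted p = 0.00275), at 12.55, 12.94 and 12.48 with antigen, against 12.16, 12.08 and 12.00 without. The arrays without antigen are those with mesothelial and stromal markers, where all 16 such markers and 14 of 22 macrophage markers were called lower with antigen, and all 11 division genes higher. Their part in these changes was not tested. Centring each array on the median of its genes moved the median of all genes by 0.51 and gave 25 rises and 1 fall, and the share of all calls that were higher went to 86.0%, against 54.3% in the values as deposited. These counts too stand without the share of all genes called after centring. Without replicate 1 of the cultures lacking antigen 17 genes were called, and without replicate 2 of those given antigen 14.

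**Figure D4:**
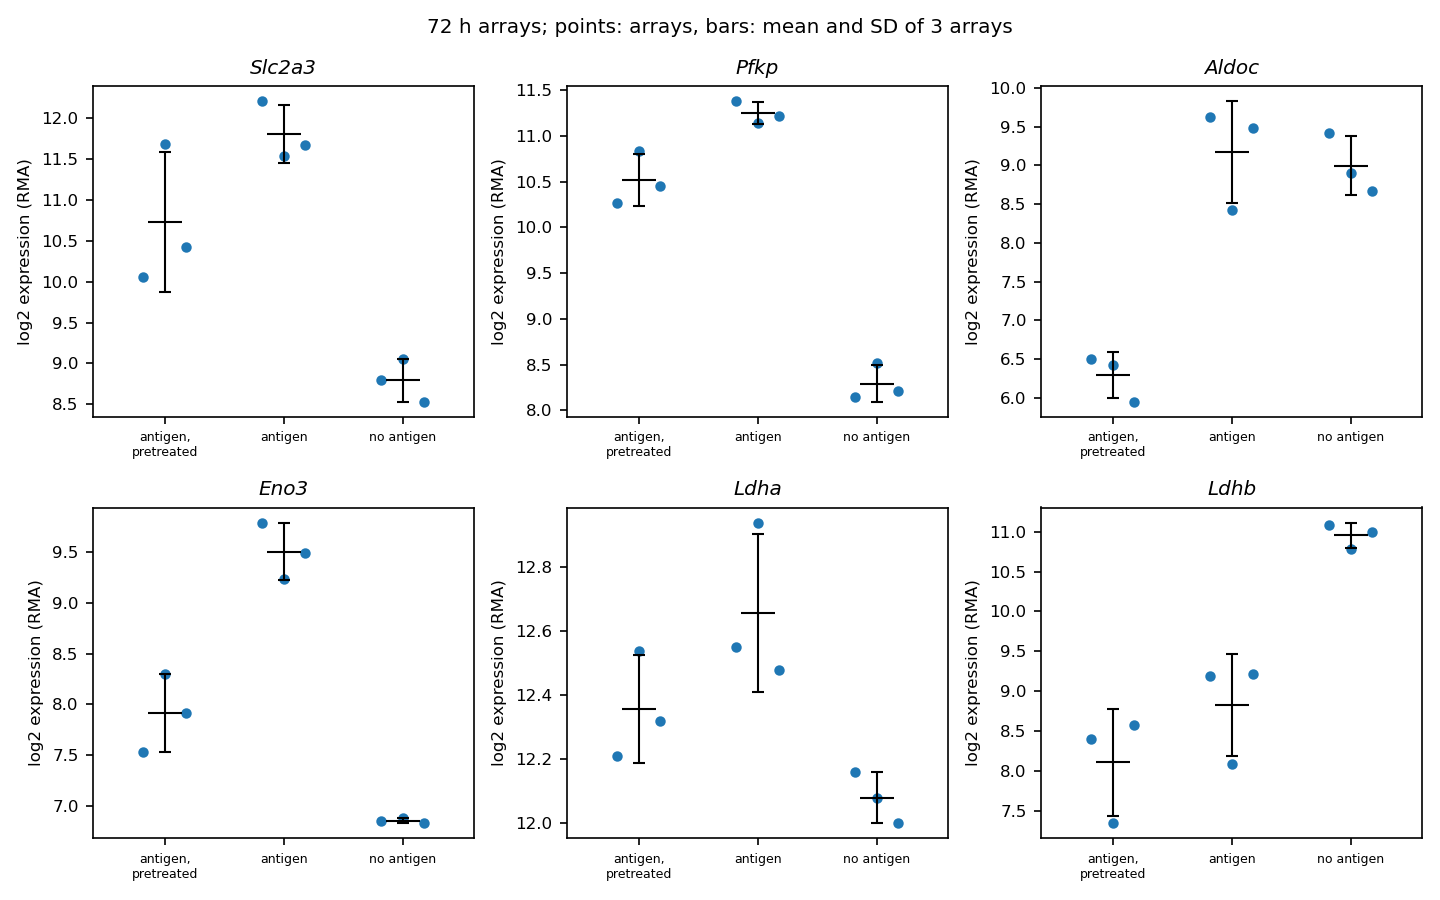
Log2 expression of 6 genes on the 72 h arrays, each point 1 array, with the mean and SD of 3 arrays; groups from left to right are antigen on pretreated macrophages, antigen on untreated macrophages, and no antigen. Aldoc is lowest on pretreated macrophages (5.95 to 6.50, against 8.42 to 9.62 on untreated ones), and Ldhb is highest without antigen (10.78 to 11.09).

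Some glycolysis genes were lower in cells given antigen on cytokine-pretreated macrophages than on untreated ones. At 72 h, 6 of 29 fell and none rose, beside 9.69% of all genes called and 5.91% lower, and 27 of 29 lay below 0 (median -0.35, beside 0.02 over all genes). Replicate numbers paired the arrays here. Fitting these 2 groups alone called 5 genes, beside 5.90% of all genes, and adding the replicate block called 8, all lower, beside 8.95% (5.22% lower). Aldoc, the aldolase of brain and other tissues, fell most, at 6.50, 6.43 and 5.95 on pretreated macrophages, against 9.62, 8.42 and 9.48 on untreated ones (-2.88 ± 0.31, 7.36-fold lower, adjusted p = 0.000508). It was at 9.42, 8.90 and 8.67 without antigen, so the pretreated arrays were the lowest of the 3 groups. A second, dim probe set for Aldoc differed by -0.30. Eno3 stood at 7.53, 8.30 and 7.91, against 9.79, 9.23 and 9.49 on untreated macrophages (-1.59 ± 0.21, adjusted p = 0.00172). Pfkm stood at 6.46, 6.71 and 6.53, against 7.68, 7.54 and 8.01 (-1.18 ± 0.18, adjusted p = 0.00364), below the cultures without antigen too (7.80, 7.64 and 7.56).

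Pgm2 fell by 0.82 on the log2 scale (SE 0.16, adjusted p = 0.0118), and Pfkp by 0.73 (SE 0.16, adjusted p = 0.0169). Pgk1 fell by 0.44 (SE 0.11), a call lost under 9 of 13 alternatives. Slc2a3 stood at 10.06, 11.69 and 10.43 on pretreated macrophages, against 12.21, 11.54 and 11.67, and was not called (-1.08 ± 0.35, adjusted p = 0.0779). Replicate 2, which had the most division gene expression of the pretreated arrays, was the one inside the range of untreated macrophages. In the same comparison 7 of 11 division genes were called lower. Over all genes 5.91% were called lower and 3.78% higher there. Of 22 macrophage and 7 alternatively activated macrophage markers, 2 each were called higher. The mean macrophage marker level was 4.07 to 4.30 on pretreated macrophages, against 3.82 to 3.83 on untreated ones, and that of alternatively activated markers 4.50 to 4.84, against 3.84 to 4.05. Granulocyte and mast cell markers stood at 3.76 to 4.07, against 3.40 to 3.59, with 0 of 6 called. Of 16 mesothelial and stromal markers 1 was called higher and 1 lower, and replicate 1 of the pretreated arrays held the highest mean (6.41). The part of these markers in the falls was not tested. Hk2, Slc2a1, Pkm and Ldha were not called, with changes of 0.09, -0.16, -0.06 and -0.30. Against cultures without antigen, cells on pretreated macrophages had 10 genes higher and 3 lower, beside 32.5% of all genes called, 16.9% higher and 15.6% lower, with Ldhb (-2.85 ± 0.34), Aldoc (-2.70 ± 0.31) and Pfkm (-1.10 ± 0.18) lower, and Pfkp (2.22 ± 0.16) and Slc2a3 (1.93 ± 0.35) highest among the rises. Between 3 and 9 genes were called in pretreated over untreated cultures when single arrays were left out, 3 without replicate 3 of untreated macrophages and 9 without replicate 2 of pretreated ones.

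At 48 h, 2 of 28 fell on pretreated macrophages and none rose, beside 8.64% of all genes called, 2.71% higher and 5.93% lower, which is near the share of the glycolysis genes. They were Slc16a1, at 6.79, 7.54 and 7.84 on pretreated macrophages, against 8.33, 8.19 and 8.35 on untreated ones (-0.90 ± 0.25, adjusted p = 0.0256), and Eno3, at 7.80, 8.02 and 8.60, against 8.71, 8.83 and 8.84 (-0.66 ± 0.17, adjusted p = 0.0173). The median change was -0.30, and replicate 3 lay close to untreated cultures for most genes, as for Hk2 (7.88, 7.97 and 8.61, against 8.61, 8.59 and 8.73). Without replicate 3, 9 genes were called, and without replicate 2 of untreated macrophages none. In the same arrays all 11 division genes were called lower, and 7 of 23 macrophage and 5 of 7 alternatively activated macrophage markers higher. Their part was not tested.

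In comparisons added after the data were seen, pretreated cultures in full medium were set against each low medium with antigen. Against low arginine, 8 of 28 genes were higher and 1 was lower, beside 3.37% of all genes called, 1.52% higher and 1.85% lower. They were Slc2a1 (0.94 ± 0.17, adjusted p = 0.00242), Slc2a3 (1.44 ± 0.32, adjusted p = 0.0114), Hk2, Pfkl, Tpi1, Gapdh, Pgk1 and Eno2 higher, and Eno3 lower (-0.63 ± 0.17, adjusted p = 0.0446). Against low leucine, Eno2 was higher and Eno3 lower, beside 5.92% of all genes called, 2.45% higher and 3.47% lower. Against low lysine, Slc2a1, Slc2a3 and Eno2 were higher, beside 3.53% of all genes called, 2.78% higher and 0.757% lower. Eno2 stood at 6.74, 6.82 and 7.80 on pretreated macrophages, against 6.27, 5.83 and 5.90 in low arginine, 6.12, 5.67 and 6.32 in low leucine and 5.76, 5.55 and 5.90 in low lysine, with no overlap. Leaving out single arrays gave 2 to 8, 2 to 5 and 1 to 8 calls in the 3 comparisons, the lowest without replicate 2 of low arginine, replicate 2 of pretreated cultures and replicate 3 of pretreated cultures in turn. Fitting the groups alone gave 3, 1 and 0, beside 2.06%, 4.9% and 0.523% of all genes.

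Changes in the balance between isoform genes were read as the difference of their log2 values within each array, which no scaling of whole arrays can alter. Across 7 pairs and the 16 planned comparisons, 99 differences were compared, and in 44 the arrays of both groups did not overlap. Comparisons reuse arrays, and how often pairs of other genes fail to overlap was not counted, so this count has no reference beside it. An exact two-sided permutation test of 3 arrays against 3 cannot go below 0.1, and 0.1 was reached in 43 of the 44, the other being 0.2 for Pfkfb3 minus Pfkfb2 with antigen in low arginine. Adjusted over 99 tests none could pass, so values are given as a description.

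Hk2 minus Hk1 was 0.40, 0.51 and 0.43 in low arginine with antigen, against 1.19, 0.95 and 1.32 in full medium, a shift of -0.71. The 0 of such a difference has no meaning, since the 2 genes are read by different probes, so only shifts between groups are read. Over the 48 h arrays it ran from 0.40 to 1.32 with antigen, against -0.95 to -0.06 without. Pfkp minus Pfkl was 2.32, 2.32 and 2.40 in low arginine, 2.25, 2.59 and 2.18 in low leucine and 2.09, 2.34 and 2.16 in low lysine, against 1.25, 1.53 and 1.74 in full medium. Each low medium lay above full medium, by 0.84, 0.83 and 0.69. Without antigen this difference ran from 0.45 to 1.14.

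Slc16a3 minus Slc16a1 was -0.59, -1.25 and -0.91 with antigen in low arginine, against 0.95 and 0.08 without, and -1.10, -1.42 and -1.52 with antigen in low lysine, against 0.72, 0.40 and 0.29 without. With antigen the MCT1 gene gained on the MCT4 gene in the 3 low media, by 1.43, 0.91 and 1.82. In full medium with antigen the difference was -0.81, -0.18 and -0.28. Slc2a3 minus Slc2a1 was -2.22, -2.41 and -2.21 in low arginine and -2.53, -2.64 and -2.32 in low lysine, against -1.74, -1.24 and -1.44 in full medium, so the GLUT3 gene lost more than the GLUT1 gene.

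**Figure D5:**
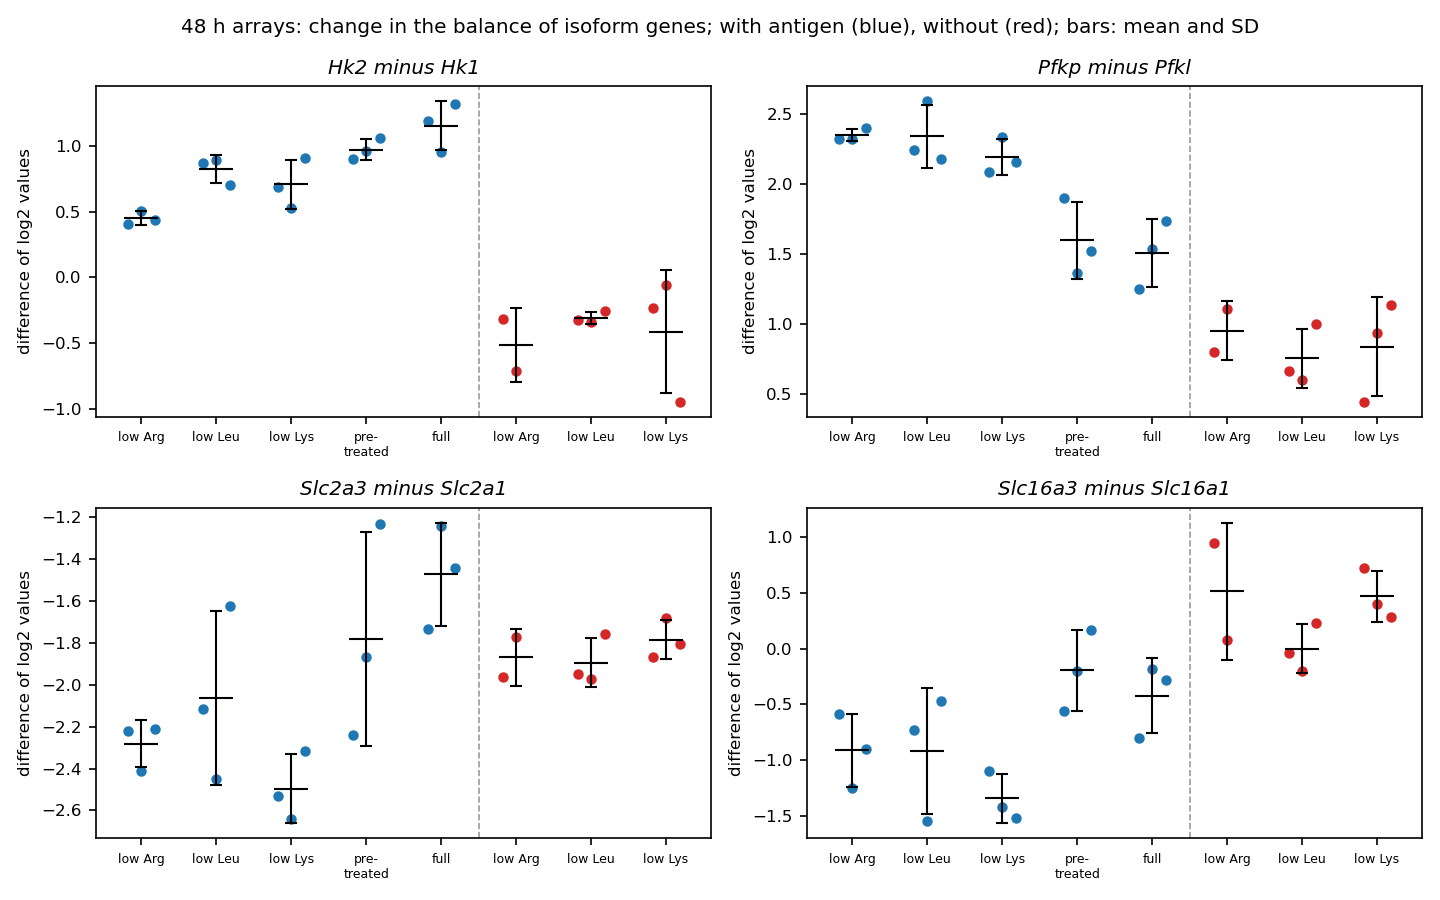
Difference of the log2 values of 2 isoform genes within each 48 h array (points), with the group mean and SD; blue groups had antigen and red groups did not. Hk2 minus Hk1 is higher with antigen (0.40 to 1.32) than without (-0.95 to -0.06), and Pfkp minus Pfkl is higher in the 3 low media (2.09 to 2.59) than in full medium (1.25 to 1.74).

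At 72 h Ldha minus Ldhb was 3.36, 4.85 and 3.27 with antigen, against 1.07, 1.30 and 1.00 without, and 3.81, 5.20 and 3.75 with antigen on pretreated macrophages. At 48 h it was -0.89, -0.93 and -0.87 with antigen in low arginine, against -0.62 and -0.55 without. In low leucine it was -0.70, -1.19 and -0.95 with antigen, against -0.39, -0.86 and -0.42 without, and in low lysine -0.77, 0.04 and -0.55 with antigen, against -0.65, -0.40 and -1.01 without. The groups overlapped in low leucine and low lysine and not in low arginine. Both genes read low on the 48 h arrays, and whether their probe sets understate change there was not tested. The array types and media differ between the times, so the values stand side by side. Slc2a3 minus Slc2a1 was 2.02, 1.76 and 2.09 with antigen at 72 h, against 0.21, 0.04 and -0.03 without, and 0.46, 1.52 and 1.13 on pretreated macrophages, below untreated ones in each array. Aldoc minus Aldoa was -5.72, -5.84 and -6.22 on pretreated macrophages, against -2.92, -3.78 and -3.02 on untreated ones. The shifts with antigen seen at 48 h in 2 other pairs were not seen at 72 h, where the groups overlapped. Hk2 minus Hk1 was 0.16, 0.50 and -0.39 with antigen on untreated macrophages, against -0.28, 0.39 and 0.22 without. Slc16a3 minus Slc16a1 was -4.85, -5.37 and -5.27 with antigen, against -4.97, -5.46 and -5.28 without.

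Genes next to glycolysis were counted from lists of the pentose phosphate branch (5 measured), pyruvate entry into mitochondria (11 at 48 h, 10 at 72 h), side branches and gluconeogenesis (9) and regulators (8). In low arginine, leucine and lysine against full medium, 1, 1 and 1 of the pentose phosphate genes fell, 3, 2 and 3 of the pyruvate genes fell, and 2, 1 and 2 of the regulators fell, beside 3.17%, 1.56% and 6.24% of all genes. Of the side-branch genes none fell and 1 rose in each, Pck2 in low arginine and low lysine and Gpd2, the mitochondrial glycerol phosphate dehydrogenase, in low leucine. Pgd, the second dehydrogenase of the pentose branch, was the pentose gene in each (-1.05 ± 0.15, -0.60 ± 0.15 and -1.15 ± 0.15). Pdk1, a kinase that shuts pyruvate dehydrogenase, changed by -1.07 ± 0.18, -0.81 ± 0.18 and -0.97 ± 0.18, and Pdp2, the phosphatase that opens it again, by -0.99 ± 0.18, -0.87 ± 0.18 and -0.98 ± 0.18. Egln3, a HIF prolyl hydroxylase whose gene is itself raised by HIF-1, had the largest change of the listed genes in low arginine, at 6.08 ± 0.17 in low arginine, 8.70 ± 0.55 in low leucine and 8.14 ± 0.90 in low lysine, against 10.18 ± 0.18 in full medium (SD, n = 3 each). In low arginine that was -4.10 ± 0.33 (adjusted p = 4.07e-08), and the level without antigen there was 5.49 ± 0.01 (SD, n = 2). Egln3 was lower in low arginine than in low leucine and low lysine with antigen too (-2.63 ± 0.33 and -2.06 ± 0.33). Bsg, the chaperone of MCT1 and MCT4, fell in low arginine and low lysine (-0.61 ± 0.17 and -0.69 ± 0.17). Pck2, the mitochondrial enzyme that makes phosphoenolpyruvate, rose in both (1.01 ± 0.18 and 0.69 ± 0.18).

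With antigen, Hif1a and Myc rose in all 3 low media (2.59, 2.24 and 2.40, and 1.54, 1.58 and 1.97 in low arginine, leucine and lysine) and at 72 h (0.94 ± 0.10 and 1.48 ± 0.19). Txnip, which encodes a protein that limits glucose uptake, fell in each of these (-0.86, -1.28, -1.34 and -1.88). It was higher on pretreated macrophages at 48 h (1.23 ± 0.16, adjusted p = 4.4e-05) and at 72 h (1.46 ± 0.19, adjusted p = 0.00149), and in low arginine (0.72 ± 0.16, adjusted p = 0.0101). On pretreated macrophages at 72 h, 3 of 5 pentose phosphate genes fell (Pgd, Taldo1 and Tkt) and 4 of 10 pyruvate genes (Dlat, Pdk1, Pdk3 and Pdp2). Over all genes, 5.91% were lower there. At 48 h, 2 of 5 and 3 of 11 fell, beside 5.93% of all genes, with Pgd and Pdp2 in both times (-0.95 ± 0.15 and -1.08 ± 0.18 at 48 h).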

How the data were processed

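Expression was measured on 23 MoGene-2_0-st arrays at 48 h and 9 HT_MG-430_PM arrays at 72 h. Per the submitters' processing notes the authors ran RMA in Affymetrix Expression Console 1.1, and what they deposited is a log2 value for each probe set. Which arrays were normalized together is not given in the sources used here. RMA makes arrays alike in distribution, so a change common to most genes would be reduced. No pair of arrays was identical, and array medians over all probe sets were close (5.44 to 5.75 on the 48 h type, 3.87 to 4.04 on the 72 h type). Medians over the genes used differed more at 72 h, at 5.09 to 5.35 without antigen and 4.61 to 4.73 with antigen on untreated macrophages. Precision is limited by how many arrays a group has.

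Symbols came from the platform annotation, updated through Entrez IDs to RefSeq (GRCm38.p6) where the ID matched. At 48 h 23521 probe sets named 1 gene, 1814 several and 16010 none, and at 72 h 28898, 551 and 15588. Each gene was read from the probe set with the highest mean among those naming it alone (22180 genes at 48 h, 17097 at 72 h). Groups were compared with limma 3.58.1 in R 4.3.3 (lmFit, eBayes with intensity trend), all groups of an array type in the same fit, the array types never together, with Benjamini-Hochberg adjustment within each comparison and a threshold of 0.05, two-sided. Of 19 comparisons, 16 were planned and 3 were added after the data were seen. Isoform differences were tested by exact permutation. Of these steps, the limma comparison of groups was tested on simulated data, for 1 comparison of each array type. Python 3.11.15, pandas 2.3.3 and matplotlib 3.10.9 made tables and plots. The genes and lists were chosen with earlier results of these data known. All listed genes are accounted for; values per array were given for genes whose call or level differed within a step and for up to 8 genes with the largest called change in a comparison.

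Titles number the replicates. Over the 5000 brightest genes, arrays of the same number deviated together in every pair (r above 0.1) for pretreated over untreated macrophages at 72 h (0.16 to 0.26) and for low arginine over low leucine with antigen (0.29 to 0.39), and not in the other comparisons; a fit with the replicate block was run for each as an alternative. Other alternatives were centred arrays, quantile normalization, a filter on dim genes, the mean of all probe sets, eBayes without trend, the compared groups alone, and leaving out each array.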

Additional observations from a re-analysis of the deposited data

How the results depend on the processing

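The number of glycolysis genes called was recomputed under each alternative. Values that moved by more than 1.5 times were as follows, and the cause was not tested. With the compared groups alone, 20 genes were called in low arginine, 10 in low leucine and 7 in low lysine against full medium (13, 2 and 12 in the fit over all groups), 1 on pretreated macrophages at 48 h (2), 6 in low arginine over low leucine (1), and 3, 1 and 0 in pretreated cultures over low arginine, leucine and lysine (9, 2 and 3). Over all genes these fits called 11.1%, 7.46% and 4.36% against full medium and 3.96% in low arginine over low leucine. They called 8% on pretreated macrophages at 48 h, and 2.06%, 4.9% and 0.523% in pretreated cultures over low arginine, leucine and lysine. Adding the replicate block to these fits gave 20, 10 and 7 against full medium and 13 in low arginine over low leucine. Over all genes 12.1%, 7.97%, 4.59% and 6.33% were then called, in the same order. Replicate numbers paired the arrays only in low arginine over low leucine and for pretreated macrophages at 72 h. The latter had 8 calls with the block and 5 without it in the compared groups alone, and 6 in the fit over all groups. With the block, 3 were called on pretreated macrophages at 48 h, and 7, 2 and 2 in pretreated cultures over low arginine, leucine and lysine. The shares of all genes called there were 8.44%, 2.93%, 4.13% and 1.09%. Centred arrays gave 26 calls for antigen at 72 h (16), 20 for pretreated cultures over no antigen (13), 0 for low arginine over low leucine and 1 for low leucine over low lysine with antigen (0). Quantile normalization gave 4 in low leucine against full medium, 0 in low arginine over low leucine and 4 in pretreated cultures over low leucine. Removing dim genes gave 4 in low leucine against full medium, 1 in low leucine over low lysine, and 5 in pretreated cultures over low leucine and over low lysine. For centred arrays, quantile normalization, removed dim genes and arrays left out, the share of all genes called is not given. Those counts have no background beside them.

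Leaving out 1 array at a time gave 0 to 9 calls on pretreated macrophages at 48 h, 8 to 13, 0 to 3 and 5 to 16 in low arginine, leucine and lysine against full medium, 9 to 13, 16 to 20 and 12 to 17 for antigen in them, 0 in low arginine over low leucine, 0 to 4 in low leucine over low lysine with antigen, 2 to 8, 2 to 5 and 1 to 8 in pretreated cultures over low arginine, leucine and lysine, 14 to 17 for antigen at 72 h, 3 to 9 on pretreated macrophages at 72 h and 11 to 14 against no antigen. The median change in pretreated cultures over low leucine (0.07) ran from -0.0154 without replicate 2 of low leucine to 0.152 without replicate 1 of the pretreated cultures. Of 129 called changes, 116 kept their call with centred arrays, 114 with quantile normalization, 121 with the mean of probe sets, 124 without the trend and 105 with the compared groups alone, and 592 of 761 when single arrays were left out. None of them changed sign. Over all genes, quantile normalization moved the share of calls that were higher to 45.3% in low arginine against full medium, against 32.2%, and to 44.5% in low arginine over low leucine, against 32.9%. Centred arrays moved it to 18.4% in low lysine against full medium, against 28.6%. The spread between 3 arrays limits which changes are called, as for Slc2a3 on pretreated macrophages.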
